A study of Homo sapiens with 10 samples.

Results

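The comparison set OVCAR-3 cells held in silica gel against OVCAR-3 cells that had survived a stress and grown out again. It used 8 of the 10 libraries of the series, chosen by their labels. The gel arm held 4 libraries, 2 of cells immobilized for 24 hours (Day1) and 2 of cells immobilized for 3 days (Day3). The survivor arm held 4 libraries. Of these, 2 came from cells that had outlived 3 days of immobilization and were then returned to standard culture for 2 weeks (Extracted), and 2 from cells that had outlived a 24-hour exposure to 0.5 uM cisplatin and then recovered for 2 weeks (Treated). The other 2 libraries were Control cells in standard culture, which entered the estimate of the spread and are given beside the results. OVCAR-3 is an established line from a human ovarian adenocarcinoma, all 5 groups share that line, and the labels give 2 biological replicates per group. The Treated cells never entered a gel, the Extracted cells never met cisplatin, and the gel cells were not given a recovery. The comparison therefore covers the gel, the time since the stress and 2 kinds of past stress together, and these cannot be told apart within it. The question it addresses is how the immobilized state differs from the state of survivors in long-term growth.

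Cells in a rigid silica gel keep exchanging nutrients and oxygen with the medium by diffusion, but they cannot spread or divide freely. Epithelial tumour cells in culture read their attachment through integrins, the actin cytoskeleton and the coactivator YAP, which binds TEAD factors at its target genes. Starved or damaged cells slow bulk translation while the transcription factor ATF4 and its partner CHOP raise genes for amino-acid supply and stress defence. Cisplatin is a platinum drug that crosslinks DNA, and cells take it up and neutralize it in part with proteins that also handle copper, including the metallothioneins.

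Expression was measured as TPM, a length-corrected share of each library that makes genes comparable within it. Sequencing depth is unknown, so no counting interval can be given, and an exact 0 can be a failed estimate. Between 13896 and 14173 genes per library reached 1 TPM. All 15 markers of ovarian carcinoma and of epithelial cells that were set for the line were at 1 TPM or more in all 10 libraries, among them PAX8 (308.6 to 500.5 TPM), KRT8 (1350 to 1924 TPM) and EPCAM (310.5 to 476 TPM). Of 9 fibroblast markers 2 passed the filter, with the list summing to 10.0 to 11.5 TPM in gel and 7.32 to 15.6 TPM in survivors. Of 9 leukocyte markers 3 passed the filter, and 1 of these, CD68, was lower in gel, as given with the defence proteins below. CD3D and FCGR3A were at 0 in every library. The leukocyte list summed to 3.06 to 4.51 TPM in gel and 3.70 to 10.1 TPM in survivors. The 6 endothelial markers summed to 1.35 to 1.92 and 1.81 to 2.79 TPM. Treated replicate 2 stood apart with 14.7% of its TPM in small-RNA genes and mitochondrial rRNAs, Extracted replicate 1 had 3.21%, and the other 8 libraries had 0.196% to 1.24%. The mean share was 3.75 percentage points lower in gel than in survivors, a difference within the spread of the libraries (exact permutation test, two-sided, p = 0.371).

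**Figure D1:**
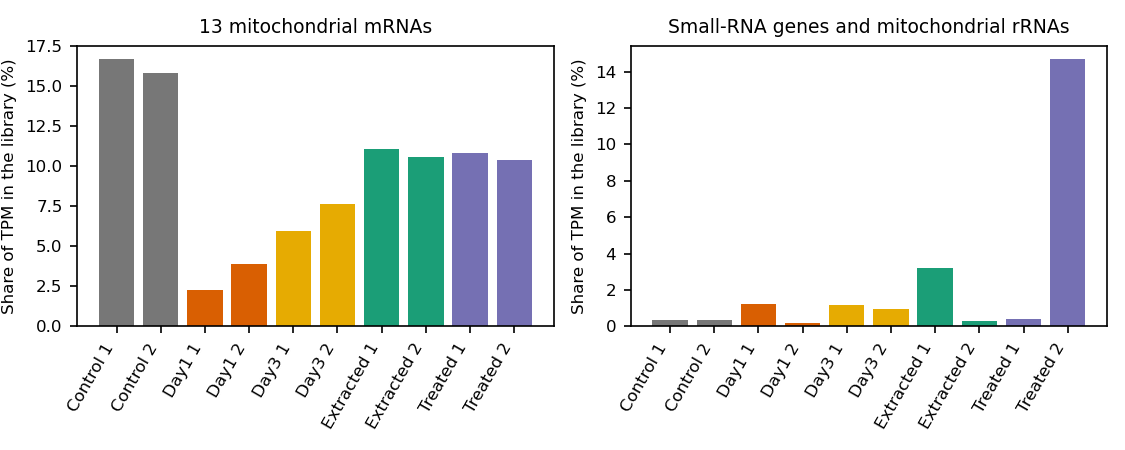
Share of TPM (vertical axes, in percent) held by the 13 mitochondrial mRNAs and by small-RNA genes with mitochondrial rRNAs in each of the 10 libraries, 1 bar per library. The mitochondrial share is 2.29% to 7.61% in the 4 gel libraries and 10.4% to 11.1% in the 4 survivor libraries, and Treated replicate 2 holds 14.7% small RNA.

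Of 15167 genes tested, 6790 (44.8%) differed between cells in gel and survivors, with 5151 (34.0%) higher in gel and 1639 (10.8%) lower. All log2 differences below are gel minus survivor on log2(TPM + 1), from limma with 1 coefficient per group and 5 residual degrees of freedom. P values are two-sided and adjusted by Benjamini-Hochberg over all 15167 genes, and a gene was called at an adjusted p under 0.05. Most differences were small. A change of at least 2-fold was reached by 523 called genes, which split into 235 higher (1.55%) and 288 lower (1.90%) in gel. The 4 gel libraries did not overlap the 4 survivor libraries for 4813 genes (31.7%), of which 3701 lay above and 1112 below. The median log2 difference of all genes was 0.17. Dividing each library by the median of its ratios to the geometric mean over libraries brought that median to -0.00 and left 2870 genes higher (18.9%) and 3218 lower (21.2%). The excess of calls in the higher direction was thus absent with that scaling, and list counts below are given with both scalings. Of the 523 called genes with a 2-fold change, 521 kept their call and direction with it. Their size did move, and genes crossed the 2-fold line both ways. DSC2 went from 1.11 to 0.91 and GDF15 from -0.85 to -1.03. How many of the 523 stayed at 2-fold was not counted, so the split into 235 and 288 holds without rescaling. Without the 2 libraries richest in small RNA, 4829 genes were called. When each arm was pooled, so that differences between its groups counted as spread, 4211 genes were called, and 505 of the 523 genes with a 2-fold change were among them.

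**Figure D2:**
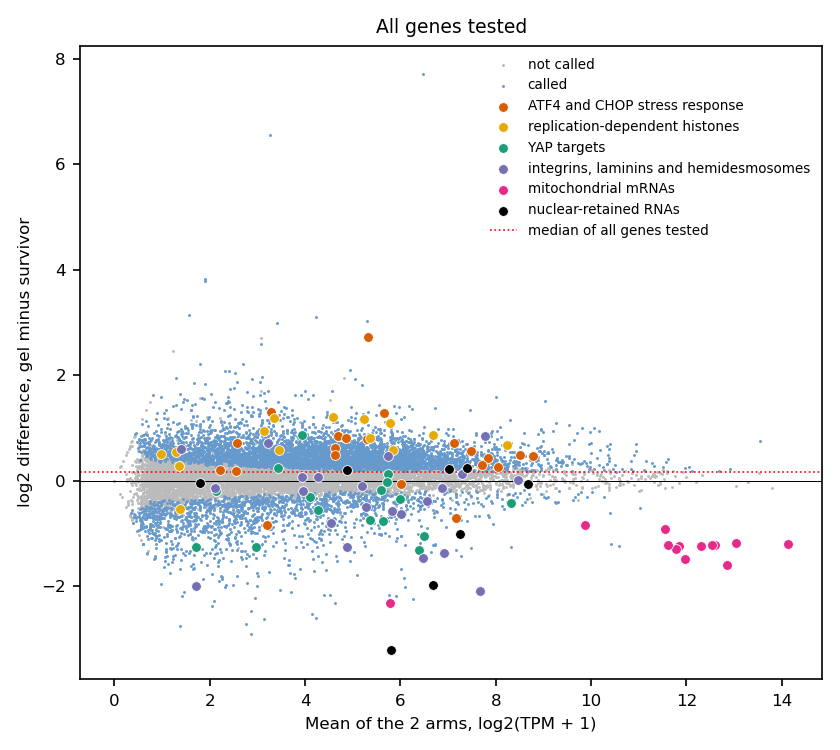
Log2 difference, gel minus survivor (vertical axis), against the mean of both arms on log2(TPM + 1) (horizontal axis) for the 15167 genes tested, with 6 gene lists in colour and a dotted line at the median of 0.17. The mitochondrial mRNAs lie below 0, most ATF4 and CHOP genes above the line, and NEAT1, at -3.21, lies lowest among the coloured points.

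The ATF4 and CHOP stress response was higher in gel, and chiefly after 24 hours. Of 21 tested members 16 were higher and 2 lower in gel, with a median of 0.49 against 0.17 for all genes; with median-of-ratios scaling 14 were higher and 3 lower. Medians relative to survivors were 0.93 on Day1 and 0.20 on Day3, beside 0.20 and 0.14 for all genes. Called lower on Day3 than on Day1 were 13 members, beside 256 of all 15167 genes. The number of calls between these 2 groups moved strongly with single libraries. With pooled arms 7 members were higher and 0 lower. Promoter sequence is shown for the 3 members whose upstream window held the element bound by ATF4, since they include the gene with the largest change of the list. The windows were the 250 bases before a start in the RefSeq table (GRCh38.p14), searched on both strands for TGATGNAAN, with N any base. Only the first start listed was searched for each list member, here and below. The element occurs in 1100 of 35093 promoters of that table (3.13%) and in 3 of the 17 members that the table holds. The first share counts promoters, of which a gene can have several, and the second counts genes. A match is a description of the letters and does not show a site in use. The stretches below lie at chr1:212565187-212565246 (plus strand) for ATF3, at chr15:40953231-40953290 (plus strand) for CHAC1 and at chr7:97872444-97872503 (minus strand) for ASNS, read 5′ to 3′ on the strand of the gene, with the match in capitals (on the opposite strand in CHAC1).
ATF3: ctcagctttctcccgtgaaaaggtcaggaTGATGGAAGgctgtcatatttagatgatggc
CHAC1: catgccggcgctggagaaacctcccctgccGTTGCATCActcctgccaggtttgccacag
ASNS: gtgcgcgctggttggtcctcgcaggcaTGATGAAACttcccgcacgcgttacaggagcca

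ATF3, a stress-induced repressor and activator of transcription (ENSG00000162772, chr1:212565334-212620777, plus strand), measured 219.3 and 143 TPM (Day1), 56.6 and 59.9 (Day3), 17.2 and 15.96 (Extracted) and 15.4 and 10.7 (Treated) (log2 difference 2.72 ± 0.14 (SE), adjusted p = 2.94e-06). Every gel library lay above every survivor library, and the Day1 libraries were more than 2-fold above the Day3 libraries (Day3 minus Day1 -1.59, adjusted p = 0.0074). SESN2, a sensor of leucine that restrains mTORC1, measured 26.4 and 19.6 TPM (Day1), 8.96 and 9.10 (Day3), 5.66 and 6.16 (Extracted) and 4.88 and 4.42 (Treated) (log2 difference 1.31 ± 0.11 (SE), adjusted p = 2.29e-05). DDIT3, which encodes CHOP itself, measured 170.9 and 119 TPM (Day1), 40.8 and 42.8 (Day3), 29.4 and 31.5 (Extracted) and 36.6 and 27.8 (Treated) (log2 difference 1.29 ± 0.12 (SE), adjusted p = 5.35e-05). The arms of both genes were separate, and in both the Day3 libraries sat just above the highest survivor library. CHAC1, which degrades glutathione, and ASNS, asparagine synthetase, are named for their promoters, outside the naming rule. CHAC1 measured 58.5 and 49.2 (Day1), 21.1 and 20.4 (Day3), 22.9 and 24.8 (Extracted) and 12.6 and 15.04 TPM (Treated), and its arms overlapped, with the Day3 libraries between the Treated and the Extracted ones (0.85 ± 0.09, adjusted p = 8.57e-05). ASNS showed the same order, with 293.7 and 210.2 (Day1), 127.9 and 124.5 (Day3), 135.3 and 146 (Extracted) and 91.5 and 76.2 TPM (Treated) (0.70 ± 0.11, adjusted p = 0.000686). The 2 members lower in gel were GDF15, a secreted stress cytokine (3.21 to 15 TPM in gel and 7.74 to 15.5 TPM in survivors, -0.85 ± 0.19, adjusted p = 0.00485), and SLC7A5, the leucine transporter (81.4 to 170.9 TPM in gel and 133.6 to 254 TPM in survivors, -0.71 ± 0.09, adjusted p = 0.000263). Both overlapped between arms, and neither was called with pooled arms (adjusted p = 0.122 and 0.0644).

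Amino-acid supply outside that list was mixed. Of 14 further amino-acid transporters 6 were higher and 3 lower (4 and 3 with median-of-ratios scaling), with a median of 0.23. SLC6A9, which imports glycine, ran at 14.5 to 34.2 TPM in gel and 5.90 to 10.9 TPM in survivors (1.19 ± 0.13, adjusted p = 8.91e-05), with separate arms. SLC7A8, an exchanger of neutral amino acids, was lower in gel at 3.07 to 5.82 TPM in gel and 7.61 to 16.5 TPM in survivors (-1.22 ± 0.13, adjusted p = 8.57e-05), again with separate arms. Of 20 aminoacyl-tRNA synthetases, the enzymes that charge tRNAs, 10 were higher and 0 lower, but only 3 were higher and 2 lower with median-of-ratios scaling, and 1 was higher with pooled arms or without the 2 libraries rich in small RNA.

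**Figure D3:**
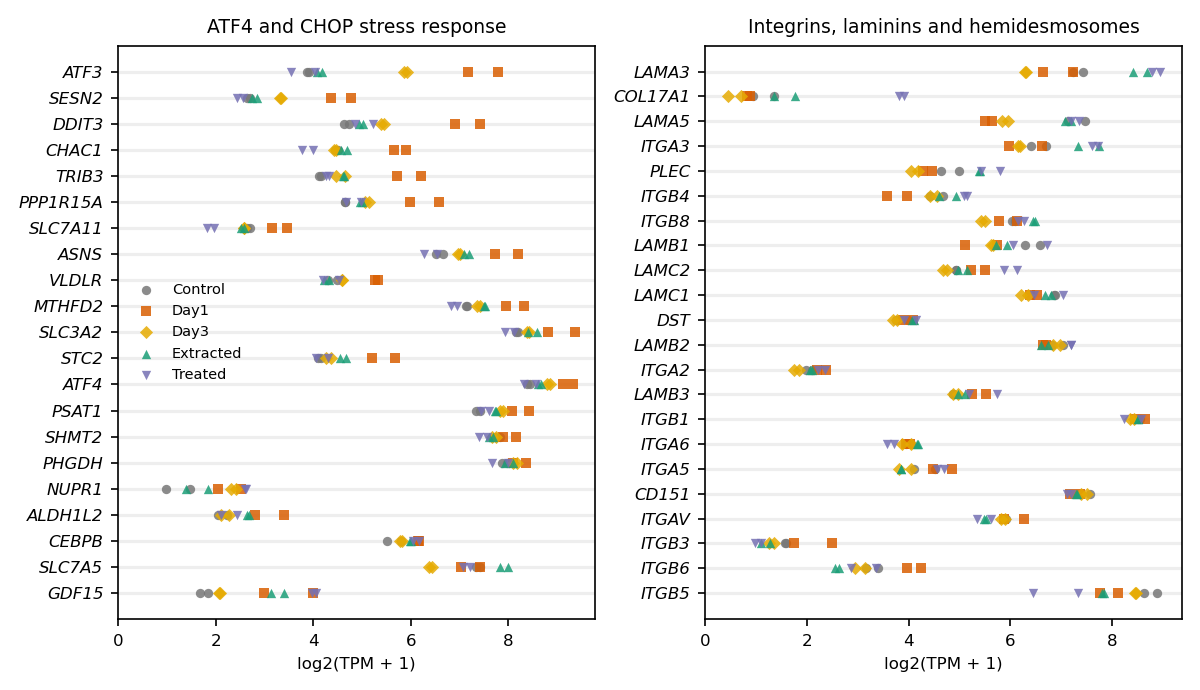
Level of each member, log2(TPM + 1), in each of the 10 libraries for the ATF4 and CHOP list and for integrins, laminins and hemidesmosome genes, with 1 symbol per group. Day1 libraries stand to the right for most ATF4 and CHOP genes while Day3 libraries lie close to survivors, and LAMA3 and LAMA5 are lower in all 4 gel libraries than in all 4 survivor libraries.

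The largest rise among the genes eligible for naming was that of WNT11, a ligand of non-canonical WNT signalling (ENSG00000085741, chr11:76186325-76210736, minus strand). It measured 83.3 and 150.5 TPM (Day1), 110.9 and 108.3 (Day3), 14.4 and 14.7 (Extracted) and 11.9 and 10.4 (Treated) (log2 difference 3.03 ± 0.18 (SE), adjusted p = 5.55e-06). IGFBP5, a secreted protein that binds insulin-like growth factors (ENSG00000115461, chr2:216672105-216695525, minus strand), measured 22.6 and 22.8 TPM (Day1), 39.6 and 35.4 (Day3), 2.51 and 3.06 (Extracted) and 2.87 and 2.81 (Treated) (log2 difference 2.99 ± 0.09 (SE), adjusted p = 1.36e-07). In both genes the 4 gel libraries stood far above the 4 survivor libraries. Control cells had 39.6 and 61.99 TPM of WNT11, nearer the gel arm, and 5.83 and 6.89 TPM of IGFBP5, nearer the survivors. IGFBP5 was higher still on Day3 than on Day1 (0.70, adjusted p = 0.0305).

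DPYSL3, a cytoskeletal protein of growth cones, measured 11.6 and 15.9 TPM (Day1), 12.2 and 12.5 (Day3), 2.08 and 2.11 (Extracted) and 1.93 and 1.88 (Treated) (2.22 ± 0.12, adjusted p = 2.94e-06). BBOX1, the last enzyme of carnitine synthesis, measured 57.8 and 71.5 TPM (Day1), 66.3 and 55.8 (Day3), 20.6 and 16.5 (Extracted) and 10.7 and 9.999 (Treated) (2.10 ± 0.13, adjusted p = 6.01e-06). BMF, a BH3-only protein that binds BCL2 proteins and is known from cells that lose attachment, measured 62.2 and 83.9 TPM (Day1), 57.98 and 52.5 (Day3), 16.2 and 16.9 (Extracted) and 15.6 and 15.1 (Treated) (1.92 ± 0.11, adjusted p = 4.92e-06). The naming rule left none of the 3 with overlapping arms, and BBOX1 was lower in Treated than in Extracted cells (-0.77, adjusted p = 0.0264). CNTN1, a neural adhesion protein, ran at 7.86 to 11.9 TPM in gel and 1.13 to 1.89 TPM in survivors (2.07 ± 0.17, adjusted p = 2.84e-05). KCNQ3, a potassium channel subunit, ran at 12.4 to 19.4 TPM in gel and 3.15 to 3.90 TPM in survivors (1.88 ± 0.10, adjusted p = 2.96e-06). TSPAN7, a membrane tetraspanin, ran at 4.43 to 12.1 TPM in gel and 0.767 to 2.75 TPM in survivors (2.08 ± 0.25, adjusted p = 0.000191). Its Day1 replicate 1 lay well below the other gel libraries without reaching the survivors. SLC15A2, a peptide transporter, ran at 4.53 to 17.8 TPM in gel and 1.20 to 3.48 TPM in survivors (2.04 ± 0.24, adjusted p = 0.000177), with Day1 replicate 1 also the lowest of the gel libraries.

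In NPAS3 and PPP1R1A, as in BBOX1, the survivor groups differed from each other. NPAS3, a bHLH transcription factor, measured 13.1 and 14.7 TPM (Day1), 18.1 and 18.4 (Day3), 7.33 and 8.09 (Extracted) and 1.27 and 1.08 (Treated) (1.96 ± 0.09, adjusted p = 1.3e-06). PPP1R1A, an inhibitor of protein phosphatase 1, measured 9.93 and 12.1 TPM (Day1), 15.5 and 17.8 (Day3), 4.29 and 5.79 (Extracted) and 1.28 and 1.59 (Treated) (1.93 ± 0.12, adjusted p = 5.81e-06). Treated libraries were far below Extracted libraries in both (Treated minus Extracted -2.0, adjusted p = 7.31e-05 and -1.30, adjusted p = 0.00242), and the Extracted libraries lay between Treated and gel.

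**Figure D4:**
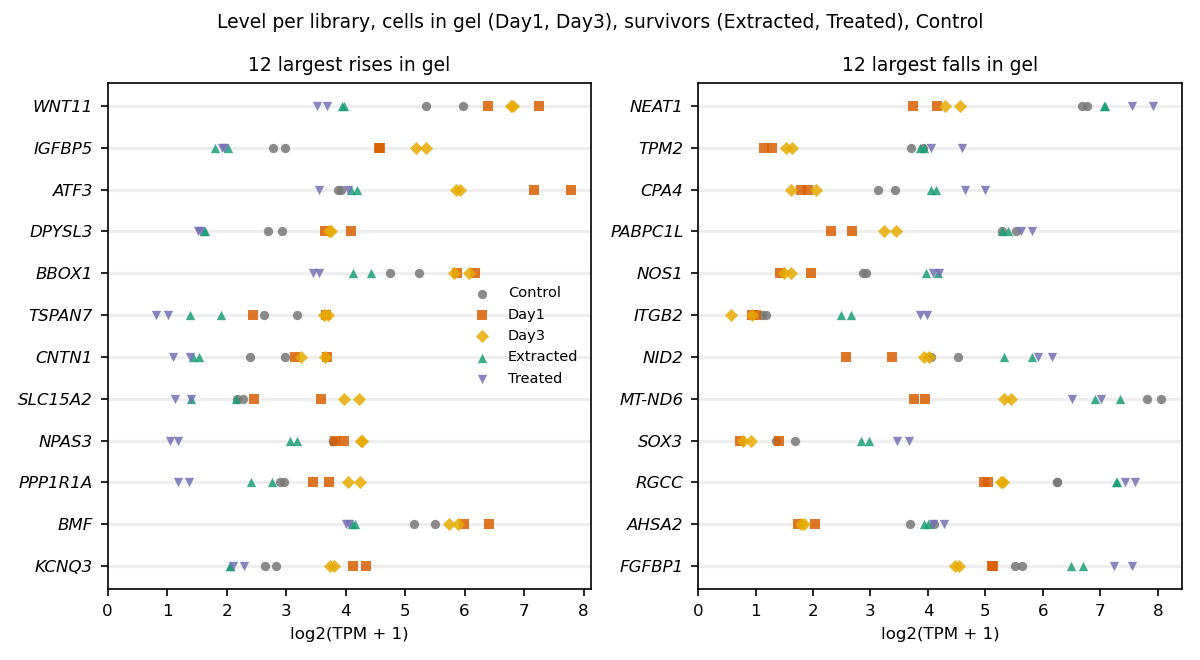
Level, log2(TPM + 1), in each of the 10 libraries of the 24 genes that changed most in gel under the naming rule, 12 upward and 12 downward, with 1 symbol per group. The naming rule required the 4 gel libraries to lie on one side of the 4 survivor libraries. The genes run from WNT11 at a log2 difference of 3.03 to NEAT1 at -3.21.

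NEAT1 had the largest fall of the 15167 genes tested. This long noncoding RNA, which scaffolds nuclear paraspeckles (ENSG00000245532, chr11:65422774-65445540, plus strand), measured 12.4 and 16.9 TPM (Day1), 22.5 and 18.5 (Day3), 132.3 and 135.2 (Extracted) and 239.5 and 186.8 (Treated) (log2 difference -3.21 ± 0.11 (SE), adjusted p = 3.22e-07). MALAT1, its neighbour on chromosome 11 and another nuclear RNA, measured 50.7 and 32.7 TPM (Day1), 69.1 and 58.05 (Day3), 197.5 and 187.6 (Extracted) and 288.5 and 161.8 (Treated) (-1.98 ± 0.18, adjusted p = 4.08e-05). SNHG1, a host gene of snoRNAs, ran at 96.7 to 129.4 TPM in gel and 188.6 to 252.4 TPM in survivors (-1.02 ± 0.08, adjusted p = 2.04e-05). The gel libraries were below every survivor library in all 3, and below both Control libraries too (101.8 and 107.7 TPM for NEAT1 and 165.4 and 159.5 TPM for MALAT1). The other called members of this list of 8 nuclear-retained RNAs, TUG1 (0.23) and NORAD (0.23), were slightly higher in gel, but neither was called with median-of-ratios scaling. The list gave 2 higher and 3 lower, and 0 and 4 with that scaling.

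TPM2, beta-tropomyosin of actin filaments (ENSG00000198467, chr9:35681992-35690121, minus strand), measured 1.21 and 1.44 TPM (Day1), 1.88 and 2.10 (Day3), 14.3 and 13.6 (Extracted) and 22.99 and 15.6 (Treated) (-2.71 ± 0.13, adjusted p = 1.65e-06). CPA4, a secreted carboxypeptidase, measured 2.77 and 2.45 TPM (Day1), 2.07 and 3.15 (Day3), 15.7 and 16.6 (Extracted) and 30.9 and 23.99 (Treated) (-2.62 ± 0.13, adjusted p = 2.65e-06). PABPC1L, a poly(A)-binding protein best known from oocytes, measured 5.38 and 3.96 TPM (Day1), 9.94 and 8.47 (Day3), 41.2 and 38.1 (Extracted) and 54.9 and 47.97 (Treated) (-2.61 ± 0.11, adjusted p = 7.14e-07). As the naming rule required, each was lower in all 4 gel libraries than in all 4 survivor libraries. RGCC, a regulator of the cell cycle that responds to complement, ran at 30.6 to 38.7 TPM in gel and 153 to 194.6 TPM in survivors (-2.25 ± 0.07, adjusted p = 1.08e-07). NOS1, neuronal nitric oxide synthase, ran at 1.68 to 2.92 TPM in gel and 14.6 to 17.4 TPM in survivors (-2.48 ± 0.13, adjusted p = 2.94e-06). FGFBP1, which releases fibroblast growth factors from the matrix, ran at 21.1 to 33.9 TPM in gel and 88.6 to 187.6 TPM in survivors (-2.18 ± 0.09, adjusted p = 7.14e-07). Control cells lay nearer the gel arm for RGCC (74.9 and 74.5 TPM) and FGFBP1 (48.95 and 44.8 TPM), and nearer the survivors for TPM2 (12 and 14.03 TPM). NID2, a basement-membrane protein, ran at 4.95 to 15.2 TPM in gel and 39.3 to 70.4 TPM in survivors (-2.33 ± 0.18, adjusted p = 1.99e-05). SOX3, a transcription factor of progenitor cells, ran at 0.649 to 1.66 TPM in gel and 6.10 to 11.7 TPM in survivors (-2.27 ± 0.16, adjusted p = 1.24e-05). AHSA2, related to an HSP90 cochaperone, ran at 2.33 to 3.07 TPM in gel and 14.3 to 18.3 TPM in survivors (-2.23 ± 0.12, adjusted p = 3.28e-06). GENCODE release 29 lists AHSA2 as a transcribed unitary pseudogene. ITGB2, the integrin chain best known from leukocytes, ran at 0.494 to 1.004 TPM in gel and 4.63 to 14.8 TPM in survivors (-2.38 ± 0.12, adjusted p = 2.94e-06), with Treated libraries at 14.8 and 13.5 TPM against 4.63 and 5.32 TPM in Extracted cells.

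Genes of cell attachment were called lower in gel more often than higher. Of 22 integrins, laminins and hemidesmosome genes 10 were lower and 4 higher (15 and 4 with median-of-ratios scaling), with a median of -0.17. LAMA3, the alpha chain of laminin-332 in epithelial basement membrane, measured 150.2 and 99.5 TPM (Day1), 78.4 and 77.3 (Day3), 338.3 and 411.1 (Extracted) and 493.9 and 443.3 (Treated) (log2 difference -2.09 ± 0.12 (SE), adjusted p = 5.42e-06). LAMA5, the alpha chain of laminin-511, measured 44.1 and 49.1 TPM (Day1), 55.8 and 60.7 (Day3), 145.4 and 134 (Extracted) and 162 and 145.9 (Treated) (-1.48 ± 0.09, adjusted p = 5.77e-06). Both were lower in all gel libraries than in all survivor libraries, and Control cells had LAMA3 at 170.5 and 149.1 TPM and LAMA5 at 138.6 and 175.4 TPM. COL17A1, a collagen of hemidesmosomes, measured 0.831 and 0.775 TPM (Day1), 0.366 and 0.639 (Day3), 1.57 and 2.42 (Extracted) and 13.1 and 14.1 (Treated) (-2.0 ± 0.15, adjusted p = 1.44e-05). Its Extracted libraries stood far nearer the gel than its Treated libraries did. The 4 members higher in gel included the integrin chains ITGB5 (0.85), ITGB6 (0.72) and ITGB3 (0.60), whose arms overlapped. ITGB3 was no longer called without Extracted replicate 1, and ITGB6 and ITGB3 were not called with pooled arms (adjusted p = 0.0836 and 0.093).

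Matrix and matrix-remodelling genes gave 15 lower and 4 higher of 26, with a median of -0.46 (16 and 4 with median-of-ratios scaling). TGM2, which crosslinks matrix proteins, measured 11.5 and 12.7 TPM (Day1), 12.6 and 12.96 (Day3), 15.8 and 22.7 (Extracted) and 63.8 and 57.5 (Treated) (-1.39 ± 0.11, adjusted p = 2.01e-05), so that Extracted libraries were close to the gel. MMP2, a gelatinase, ran at 5.40 to 6.69 TPM in gel and 11.5 to 16.8 TPM in survivors (-1.15 ± 0.10, adjusted p = 3.81e-05) and did not overlap. PLAU, the urokinase activator of plasmin, measured 165 and 86.6 TPM (Day1), 37.5 and 41.9 (Day3), 117.4 and 138.5 (Extracted) and 216.5 and 189.6 (Treated) (-1.21 ± 0.18, adjusted p = 0.000542), and one Day1 library reached into the survivor range. Members higher in gel were the protease inhibitor SERPINE2 (1.06), the tissue plasminogen activator PLAT (0.80) and the stromelysin MMP10 (0.73), all with overlapping arms and with 0 members called higher with pooled arms.

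Targets of YAP were lower in gel, with 10 lower and 2 higher of 16 and a median of -0.39 (13 and 1 with median-of-ratios scaling). The TEAD element GGAATG was searched in the same upstream windows on both strands. It occurs in 4173 of 35093 promoters (11.9%) and in 3 of the 12 members in the table. CTGF, listed in RefSeq as CCN2, held 3 copies at chr6:131951453-131951552 (minus strand) and ANKRD1 held 2 at chr10:90921198-90921317 (minus strand). These stretches are shown because both genes are standard readouts of YAP, with copies of the element in capitals, none of them overlapping.
CTGF: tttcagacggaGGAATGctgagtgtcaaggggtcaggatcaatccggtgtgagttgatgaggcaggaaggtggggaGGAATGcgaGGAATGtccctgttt
ANKRD1: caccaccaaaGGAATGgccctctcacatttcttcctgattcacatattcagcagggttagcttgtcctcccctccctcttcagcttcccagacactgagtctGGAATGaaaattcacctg

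CTGF, a matricellular growth factor (ENSG00000118523, chr6:131948176-131951373, minus strand), measured 42.95 and 44.3 TPM (Day1), 60.3 and 63.8 (Day3), 126.9 and 150 (Extracted) and 132.5 and 117.3 (Treated) (log2 difference -1.32 ± 0.08 (SE), adjusted p = 4.92e-06). CYR61, its close relative, measured 84 and 67.3 TPM (Day1), 50 and 52.3 (Day3), 144.3 and 158.4 (Extracted) and 125.4 and 99.7 (Treated) (-1.06 ± 0.10, adjusted p = 4.94e-05). Gel libraries were below every survivor library in both, and Control cells were within the survivor range for CYR61 and just below it for CTGF (95.1 and 93.1 TPM of CTGF and 146.7 and 129.6 TPM of CYR61). ANKRD1, a cardiac and stress-induced ankyrin protein named here for its promoter, ran at 25.3 and 19.9 (Day1), 10.5 and 9.25 (Day3), 27.9 and 27.7 (Extracted) and 21.8 and 15.2 TPM (Treated) (-0.56 ± 0.13, adjusted p = 0.00615), and its Day1 libraries overlapped the Treated ones. F3, tissue factor, ran at 3.31 to 4.63 TPM in gel and 6.26 to 15.8 TPM in survivors (-1.26 ± 0.18, adjusted p = 0.000516). AXL, a receptor tyrosine kinase, ran at 0.847 to 1.52 TPM in gel and 2.55 to 5.89 TPM in survivors (-1.25 ± 0.12, adjusted p = 5.11e-05), both with separate arms. NT5E, the ectonucleotidase CD73, went the other way, at 17.9 to 25.9 TPM in gel and 9.07 to 12.4 TPM in survivors (0.87 ± 0.12, adjusted p = 0.000384).

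Among 29 contractile and actin-binding genes 12 were lower and 4 higher, with a median of -0.14 (20 and 3 with median-of-ratios scaling). Beside TPM2, FLNA, the crosslinker filamin A, ran at 169.3 to 185.9 TPM in gel and 236.1 to 339.9 TPM in survivors (-0.70 ± 0.09, adjusted p = 0.000329). CALD1, caldesmon, ran at 79.03 to 87.5 TPM in gel and 87.2 to 169 TPM in survivors (-0.69 ± 0.11, adjusted p = 0.000781). FLNA did not overlap between the arms, while Treated replicate 2 put CALD1 within reach of the gel libraries. TAGLN2, transgelin-2, was higher in gel at 607.2 to 851.6 TPM in gel and 400.9 to 544.7 TPM in survivors (0.59 ± 0.06, adjusted p = 8.68e-05). Keratins together with vimentin gave 7 lower and 2 higher of 14 (9 and 2 with median-of-ratios scaling). VIM, the intermediate filament of mesenchymal cells, measured 11.01 and 7.79 TPM (Day1), 11.7 and 11.5 (Day3), 2.04 and 2.08 (Extracted) and 2.42 and 1.91 (Treated) (log2 difference 1.87 ± 0.12 (SE), adjusted p = 7.81e-06). Its gel libraries were far above the survivors and above Control cells (1.66 and 1.84 TPM). KRT81, a hair keratin, measured 3.21 and 1.81 TPM (Day1), 2.55 and 2.75 (Day3), 5.33 and 5.72 (Extracted) and 28.1 and 26.3 (Treated) (-1.94 ± 0.14, adjusted p = 1.26e-05), and KRT6A, a keratin of activated epithelium, ran at 1.55 to 3.64 TPM in gel and 5.997 to 11.1 TPM in survivors (-1.31 ± 0.13, adjusted p = 6.69e-05). For KRT81 the gap was wide to Treated and narrow to Extracted libraries.

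Genes of cell-to-cell junctions and the epithelial surface were called higher in gel more often than lower. Of 33 members 18 were higher and 2 lower, beside 34.0% and 10.8% of all genes. With median-of-ratios scaling 14 were higher and 5 lower, beside 18.9% and 21.2%. Their median was 0.26, beside 0.17 for all genes. The arms were separate for 15 of them, all with gel above, beside 3701 of all 15167 genes with gel above. DSC2, a desmosomal cadherin, measured 72.1 and 82.2 TPM (Day1), 72.9 and 69.1 (Day3), 36.7 and 34.04 (Extracted) and 35.4 and 29.2 (Treated) (1.11 ± 0.09, adjusted p = 1.94e-05). CDH2, N-cadherin, ran at 4.91 to 6.93 TPM in gel and 1.54 to 4.46 TPM in survivors (0.81 ± 0.12, adjusted p = 0.000514). TJP1, the tight-junction scaffold ZO-1, ran at 65.3 to 112.2 TPM in gel and 32.2 to 61.6 TPM in survivors (0.80 ± 0.12, adjusted p = 0.000712). The gel libraries stood above all survivor libraries in the 3 genes. EPCAM, an epithelial adhesion protein, ran at 418.2 to 476 TPM in gel and 310.5 to 452.8 TPM in survivors and did not pass the test (0.23 ± 0.10, adjusted p = 0.0935). Of 22 ovarian carcinoma markers 9 were higher and 7 lower (6 and 9 with median-of-ratios scaling). CRABP2, which carries retinoic acid, ran at 316.1 to 529.2 TPM in gel and 126.7 to 165.4 TPM in survivors (1.58 ± 0.12, adjusted p = 1.62e-05). WFDC2, the serum marker HE4, ran at 1017 to 1224 TPM in gel and 600 to 638.7 TPM in survivors (0.90 ± 0.07, adjusted p = 1.94e-05), both with separate arms. MAL, a membrane-sorting protein, measured 20.9 and 30.4 TPM (Day1), 49.3 and 49.4 (Day3), 65.6 and 63.2 (Extracted) and 230.6 and 183.7 (Treated) (-1.68 ± 0.12, adjusted p = 1.2e-05). MUC16, the CA-125 antigen, ran at 38.9 to 57.97 TPM in gel and 57.2 to 111.6 TPM in survivors (-0.67 ± 0.12, adjusted p = 0.00184). WT1, a transcription factor of serous tumours, ran at 28.9 to 61.7 TPM in gel and 13.4 to 39.8 TPM in survivors (0.96 ± 0.13, adjusted p = 0.000345), and both overlapped between the arms. Treated cells were above Extracted cells in MUC16 (0.85, adjusted p = 0.0171) and below them in WT1 (-1.35, adjusted p = 0.00313). WT1 was not called with pooled arms (adjusted p = 0.0627). PAX8, the lineage factor, ran at 323.1 to 437.5 TPM in gel and 308.6 to 358.1 TPM in survivors and did not pass the test (0.23 ± 0.09, adjusted p = 0.0657).

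Several growth-factor response genes were far lower in gel than in survivors, with immediate-early factors called in both directions. Of 18 immediate-early factors 8 were higher and 6 lower (5 and 7 with median-of-ratios scaling), and of 22 genes of MAP kinase feedback and EGF receptor ligands 3 were higher and 10 lower, with a median of -0.23 (3 and 14). EGR1, a zinc-finger factor induced by ERK signalling, measured 9.28 and 9.10 TPM (Day1), 8.07 and 9.19 (Day3), 44.4 and 34.9 (Extracted) and 44.8 and 52.6 (Treated) (log2 difference -2.17 ± 0.10 (SE), adjusted p = 1.3e-06). FOS, a subunit of AP-1, measured 7.97 and 6.91 TPM (Day1), 5.13 and 5.96 (Day3), 27.2 and 21.7 (Extracted) and 25.03 and 23.96 (Treated) (-1.78 ± 0.11, adjusted p = 5.42e-06). The 4 gel libraries were below the 4 survivor libraries in both, and Control cells lay nearer the gel (18.9 and 19.4 TPM of EGR1 and 8.14 and 9.74 TPM of FOS). AREG, the EGF receptor ligand amphiregulin, measured 24.3 and 14.9 TPM (Day1), 4.35 and 5.55 (Day3), 22.5 and 30.3 (Extracted) and 101.5 and 77.3 (Treated) (-2.17 ± 0.16, adjusted p = 1.53e-05). In AREG 1 Day1 library overlapped the Extracted ones, Day3 was lower than Day1 (-1.76, adjusted p = 0.00889), and Treated was higher than Extracted (1.73, adjusted p = 0.00301). DUSP5, a nuclear ERK phosphatase, ran at 7.16 to 17.3 TPM in gel and 23.8 to 37.02 TPM in survivors (-1.44 ± 0.10, adjusted p = 8.98e-06). SPRY1, a feedback inhibitor of receptor kinases, ran at 8.37 to 10.3 TPM in gel and 18.1 to 27.9 TPM in survivors (-1.25 ± 0.10, adjusted p = 1.99e-05), without overlap. The Control mean lay beyond the gel, away from the survivors, for AREG (5.62 and 5.25 TPM) and DUSP5 (10.2 and 10.4 TPM). For SPRY1 it lay nearer the gel (12.2 and 13.65 TPM). NR4A2, an orphan nuclear receptor, was higher in gel at 6.18 to 8.53 TPM in gel and 2.14 to 2.996 TPM in survivors (1.22 ± 0.10, adjusted p = 2.93e-05). KLF6, a zinc-finger factor, ran at 48.1 to 79.2 TPM in gel and 28.8 to 35.7 TPM in survivors (0.83 ± 0.09, adjusted p = 0.000121).

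Cell-cycle regulators changed in opposite directions. CDKN1A, the CDK inhibitor p21, measured 22.4 and 19.5 TPM (Day1), 9.85 and 10.7 (Day3), 2.65 and 2.76 (Extracted) and 6.01 and 5.21 (Treated) (log2 difference 1.67 ± 0.13 (SE), adjusted p = 2e-05). CCND1, cyclin D1, measured 100.5 and 69.6 TPM (Day1), 54.9 and 56.96 (Day3), 161.6 and 191.4 (Extracted) and 157.2 and 137.1 (Treated) (-1.22 ± 0.11, adjusted p = 4.56e-05). The arms were separate for both, with gel above for CDKN1A and below for CCND1, and CDKN1A was lower on Day3 than on Day1 (-0.96, adjusted p = 0.032). CDKN2B, p15, ran at 31.9 to 45.1 TPM in gel and 19.9 to 24.8 TPM in survivors (0.78 ± 0.09, adjusted p = 0.0002). Over 15 CDK inhibitors and G1 cyclins 5 were higher and 2 lower (5 and 5 with median-of-ratios scaling). The proliferation marker MKI67 ran at 30.01 to 44.2 TPM in gel and 42.5 to 58.98 TPM in survivors (-0.48 ± 0.12, adjusted p = 0.0106) and the centromere protein CENPF at 35.9 to 52.8 TPM in gel and 45.4 to 82.2 TPM in survivors (-0.63 ± 0.17, adjusted p = 0.0137), both overlapping. Of 28 mitosis genes 5 were lower and 1 higher, fewer calls than the 44.8% of all genes, but 19 were lower and 0 higher with median-of-ratios scaling. Their medians were -0.32 against Extracted and 0.20 against Treated cells, beside 0.11 and 0.24 for all genes. Called lower in Treated than in Extracted were 15 members, beside 1345 of all 15167 genes. Of 32 DNA replication genes 5 were higher and 5 lower (0 and 12). POLE, the leading-strand polymerase, ran at 7.22 to 9.49 TPM in gel and 12.6 to 18.4 TPM in survivors (-0.81 ± 0.12, adjusted p = 0.000717).

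Replication-dependent histones, which package new DNA, gave 12 higher and 0 lower of 14 tested members, with a median of 0.74 (11 and 0 with median-of-ratios scaling). A further 5 of the 19 members listed were below the filter. HIST1H4H measured 41.95 and 40.3 TPM (Day1), 32.3 and 29.3 (Day3), 16.4 and 14.8 (Extracted) and 13.4 and 15.03 (Treated) (log2 difference 1.21 ± 0.08 (SE), adjusted p = 7.7e-06), HIST1H2BD ran at 47.3 to 70.7 TPM in gel and 20.1 to 27.96 TPM in survivors (1.18 ± 0.11, adjusted p = 5.68e-05) and HIST1H2AE at 12.9 to 15.9 TPM in gel and 4.05 to 6.77 TPM in survivors (1.19 ± 0.15, adjusted p = 0.000262). The 4 gel libraries were above the 4 survivor libraries for 10 members, beside 3701 of all 15167 genes. Most transcripts of these genes lack a poly(A) tail and some carry one, histone genes are near-identical copies whose reads could be split between them, and the library selection is not given in the sources used here.

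Among p53 targets 8 were higher and 4 lower of 21 (3 and 5 with median-of-ratios scaling). TP53INP1, an autophagy and stress protein, ran at 20.2 to 30.8 TPM in gel and 13.3 to 13.9 TPM in survivors (0.84 ± 0.09, adjusted p = 0.000116). FAS, the death receptor, ran at 3.94 to 7.21 TPM in gel and 9.27 to 16.5 TPM in survivors (-1.15 ± 0.14, adjusted p = 0.000201). PLK3, a stress kinase, ran at 2.03 to 2.61 TPM in gel and 5.32 to 8.04 TPM in survivors (-1.30 ± 0.16, adjusted p = 0.000216), each with separate arms. BCL2-family and caspase genes gave 8 higher and 0 lower of 17, with a median of 0.27 (6 and 2 with median-of-ratios scaling). Beside BMF, the BH3-only gene HRK ran at 2.50 to 7.37 TPM in gel and 0.856 to 2.72 TPM in survivors (0.95 ± 0.14, adjusted p = 0.000694), with overlap.

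All 13 mRNAs of the mitochondrial genome were lower in gel, with a median of -1.22, and all 13 were lower with median-of-ratios scaling as well. They took 2.29% and 3.92% of the Day1 libraries and 5.97% and 7.61% of the Day3 libraries. Extracted libraries gave them 11.1% and 10.6%, Treated libraries 10.8% and 10.4%, and Control libraries 16.7% and 15.8%. No gel library reached the lowest survivor library. Means were 4.95 ± 2.33% in gel and 10.7 ± 0.273% in survivors (SD, n = 4 each), a difference of -5.79 percentage points (exact permutation test, two-sided, p = 0.0286, the smallest that 4 against 4 allows, and 0.0572 adjusted over the 2 shares tested). In bulk RNA, fewer mitochondria-rich cells and fewer such transcripts per cell cannot be told apart. MT-ND6, the complex I subunit encoded on the light strand, measured 12.6 and 14.4 TPM (Day1), 39.2 and 42.5 (Day3), 161.7 and 119.7 (Extracted) and 128.8 and 89.6 (Treated) (log2 difference -2.33 ± 0.13 (SE), adjusted p = 4.69e-06). MT-CO3, a subunit of cytochrome oxidase, measured 2244 and 3838 TPM (Day1), 5395 and 7088 (Day3), 12642 and 12565 (Extracted) and 12568 and 13557 (Treated) (-1.59 ± 0.15, adjusted p = 4.85e-05). All 13 were called higher on Day3 than on Day1, beside 100 of all 15167 genes. Medians of the 13 relative to survivors were -1.82 on Day1 and -0.68 on Day3. Of 26 respiratory-chain subunits encoded in the nucleus 16 were higher and 3 lower in gel, with a median of 0.29, but 4 were higher and 4 lower with median-of-ratios scaling, and 7 and 1 with pooled arms. The median of these 26 was 0.10 against Extracted and 0.42 against Treated cells, beside 0.11 and 0.24 for all genes. Called lower in Treated than in Extracted were 9 of them, beside 1345 of all 15167 genes. NDUFA8, of complex I, ran at 139.5 to 170.4 TPM in gel and 80.8 to 117 TPM in survivors (0.65 ± 0.07, adjusted p = 7.06e-05). NDUFB10, of the same complex, ran at 440.6 to 518.3 TPM in gel and 581.5 to 646 TPM in survivors (-0.32 ± 0.06, adjusted p = 0.00188).

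The hypoxia list gave 10 higher and 2 lower of 18, with a median of 0.44 (8 and 3 with median-of-ratios scaling). Its leading members were enzymes of collagen maturation, P4HA2 (22.8 to 38.4 TPM in gel and 12.4 to 16.3 TPM in survivors, 1.02 ± 0.08, adjusted p = 1.94e-05), P4HA1 (26.3 to 45.1 TPM in gel and 15.02 to 20.7 TPM in survivors, 0.95 ± 0.08, adjusted p = 2.52e-05) and the crosslinking oxidase LOX (2.16 to 3.70 TPM in gel and 0.744 to 1.53 TPM in survivors, 0.97 ± 0.14, adjusted p = 0.000532). The arms of the 3 genes did not overlap. SLC2A1, the glucose transporter GLUT1, was lower in gel at 36.8 to 45.7 TPM in gel and 54.4 to 63.4 TPM in survivors (-0.50 ± 0.07, adjusted p = 0.000438), as was NDRG1, a stress-induced protein, with overlap (-0.53). Of 17 glycolysis genes 4 were higher and 2 lower (3 and 7). Of 23 cholesterol synthesis genes 12 were higher and 2 lower (4 and 4), and SREBF2, the master regulator of that pathway, ran at 65.5 to 86.2 TPM in gel and 40.97 to 57.4 TPM in survivors (0.58 ± 0.09, adjusted p = 0.000548). In fatty-acid synthesis, 4 were higher and 2 lower of 14 (3 and 6), with FASN, the synthase, at 50.7 to 62.4 TPM in gel and 111.6 to 125.4 TPM in survivors (-1.02 ± 0.07, adjusted p = 7.54e-06) and FADS2, a desaturase, at 186.1 to 196.5 TPM in gel and 110.7 to 115.7 TPM in survivors (0.77 ± 0.06, adjusted p = 1.49e-05). The arms of SREBF2, FASN and FADS2 were separate.

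Copper and platinum handling genes went both ways, with 6 higher and 5 lower of 12 (3 and 6 with median-of-ratios scaling). The letters TGCGCNC, a form of the metal response element bound by MTF1, were searched as above. They occur in 5894 of 35093 promoters (16.8%) and in 5 of the 10 members in the table. Other forms of the element were not searched. The stretches of MT2A and MT1X are shown because these 2 metallothioneins were lower in gel and held these letters. The other 3 members with a match moved less, with ATOX1 at -0.02 (adjusted p = 0.856), CCS at -0.33 (adjusted p = 0.0238) and COMMD1 at 0.39 (adjusted p = 0.00907). The stretches shown lie at chr16:56608419-56608463 (plus strand) for MT2A and chr16:56682310-56682429 (plus strand) for MT1X, with matches in capitals, none of them overlapping. Any other form of the element is left in lower case.
MT2A: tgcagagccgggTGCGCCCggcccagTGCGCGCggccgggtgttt
MT1X: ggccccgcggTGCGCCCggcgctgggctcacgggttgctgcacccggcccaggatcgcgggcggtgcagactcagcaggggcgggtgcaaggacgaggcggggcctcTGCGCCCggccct

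MT2A, a metallothionein that binds zinc, copper and platinum (ENSG00000125148, chr16:56608199-56609497, plus strand), measured 26.04 and 39.9 TPM (Day1), 29.3 and 37.95 (Day3), 114.8 and 131.5 (Extracted) and 158.2 and 145.8 (Treated) (log2 difference -2.02 ± 0.13 (SE), adjusted p = 7.8e-06). MT1X ran at 17.1 to 29.3 TPM in gel and 39.4 to 44.05 TPM in survivors (-0.80 ± 0.12, adjusted p = 0.000645) and MT1F at 6.04 to 9.83 TPM in gel and 13.5 to 18 TPM in survivors (-0.94 ± 0.14, adjusted p = 0.000648). All 3 were below the survivors in each gel library, and Control cells had 50.9 and 56.5 TPM of MT2A. The metallothionein genes are close paralogs, so reads may have been shared among them. SLC31A1, the copper importer CTR1 that also admits cisplatin, was higher in gel at 16.4 to 22.6 TPM in gel and 8.13 to 12.2 TPM in survivors (0.86 ± 0.08, adjusted p = 5.36e-05), and so was ATP7A, a copper exporter, at 3.58 to 5.38 TPM in gel and 2.13 to 2.91 TPM in survivors (0.70 ± 0.13, adjusted p = 0.00161). Both had separate arms, and SLC31A1 was lower in Treated than in Extracted cells (-0.52, adjusted p = 0.0217).

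Genes of protein turnover and antigen presentation were called higher in gel more often than lower. Over all genes tested, 34.0% were higher and 10.8% lower, and 18.9% and 21.2% with median-of-ratios scaling. Proteasome subunits gave 17 higher and 0 lower of 30 (8 and 3 with median-of-ratios scaling), led by the ATPase subunit PSMC4 at 1518 to 1738 TPM in gel and 637.5 to 1051 TPM in survivors (0.95 ± 0.06, adjusted p = 5.63e-06). The median of the subunits was 0.12 against Extracted and 0.43 against Treated cells, beside 0.11 and 0.24 for all genes. Called lower in Treated than in Extracted were 11 subunits, beside 1345 of all 15167 genes. Autophagy and lysosome genes gave 14 higher and 1 lower of 27 (9 and 3). The sialidase NEU1 ran at 60.8 to 71.7 TPM in gel and 30.5 to 34.1 TPM in survivors (0.98 ± 0.07, adjusted p = 9.67e-06), the ATG8 homologue GABARAPL1 at 56.9 to 93.8 TPM in gel and 31.7 to 36.9 TPM in survivors (0.96 ± 0.09, adjusted p = 5.57e-05) and the autophagy receptor SQSTM1 at 330.1 to 538.7 TPM in gel and 233.9 to 277 TPM in survivors (0.71 ± 0.09, adjusted p = 0.000198). All 4 named genes had separate arms. MHC genes gave 8 higher and 0 lower of 15, with a median of 0.37 (7 and 2). HLA-DRA, a class II chain, ran at 5.75 to 11.9 TPM in gel and 1.33 to 2.77 TPM in survivors (1.74 ± 0.12, adjusted p = 9.72e-06) and HLA-C at 258 to 315.6 TPM in gel and 152.7 to 194.4 TPM in survivors (0.72 ± 0.07, adjusted p = 6.68e-05), both separate, while HLA-B overlapped (88.98 to 140.5 TPM in gel and 48.7 to 90.4 TPM in survivors, 0.79 ± 0.13, adjusted p = 0.00115). Reads of the HLA class I genes can be shared among these near-identical copies. PTPRC, which marks leukocytes, was at most 0.306 TPM in any library.

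Interferon-stimulated genes and secreted defence proteins depended on the kind of survivor. Of 33 interferon-stimulated genes 8 were higher and 6 lower in gel (5 and 7 with median-of-ratios scaling), and 1 was higher and 0 lower with pooled arms. Called higher in Treated than in Extracted cells were 21 of them, beside 491 of all 15167 genes. The median of the list was 0.44 against Extracted and -0.33 against Treated cells, beside 0.11 and 0.24 for all genes. IFI44L measured 16.8 and 9.53 TPM (Day1), 10.3 and 10.7 (Day3), 2.71 and 0.871 (Extracted) and 12.01 and 12.3 (Treated), and BST2, tetherin, measured 3.67 and 4.81 TPM (Day1), 2.93 and 3.76 (Day3), 2.40 and 1.92 (Extracted) and 19.1 and 15.8 (Treated). Gel libraries were above Extracted ones in both, and below Treated libraries for BST2. Of 20 S100 and secreted defence proteins 4 were higher and 8 lower (3 and 12), 18 were called higher in Treated than in Extracted, and medians were 0.44 against Extracted and -0.98 against Treated cells. PI3, the elastase inhibitor elafin, measured 30.8 and 24.1 TPM (Day1), 20.1 and 24.2 (Day3), 25.2 and 39.04 (Extracted) and 139 and 143 (Treated), and CFB, complement factor B, measured 14.5 and 15.7 TPM (Day1), 16.1 and 16.1 (Day3), 3.89 and 2.92 (Extracted) and 11.5 and 11.9 (Treated) (1.15 ± 0.11, adjusted p = 4.56e-05). CD68, the only leukocyte marker that was called, ran at 1.12 to 2.53 TPM in gel and 2.45 to 7.46 TPM in survivors (-0.97 ± 0.22, adjusted p = 0.00545), and its part in these values was not tested.

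Several signalling lists held large changes in a few members. Of 20 BMP and TGF-beta targets 9 were higher and 3 lower (8 and 4 with median-of-ratios scaling). ID2, an inhibitor of bHLH factors, measured 338.6 and 442.2 TPM (Day1), 201.4 and 203.4 (Day3), 186.6 and 192.4 (Extracted) and 64.4 and 62.8 (Treated) (1.34 ± 0.08, adjusted p = 6.9e-06). SKIL, a repressor of SMAD signalling, ran at 39.7 to 77.6 TPM in gel and 16 to 24.1 TPM in survivors (1.29 ± 0.12, adjusted p = 4.85e-05). BMPER, a secreted BMP modulator, ran at 0.998 to 3.91 TPM in gel and 4.004 to 10.98 TPM in survivors (-1.17 ± 0.18, adjusted p = 0.000686). The arms of the 3 genes were separate, narrowly so for ID2 and BMPER. In the WNT pathway 9 were higher and 4 lower of 21 (5 and 4). After WNT11, the receptor FZD7 ran at 9.10 to 10.96 TPM in gel and 3.77 to 5.58 TPM in survivors (0.99 ± 0.11, adjusted p = 0.000106) and the ligand WNT7A at 0.287 to 0.964 TPM in gel and 2.34 to 5.29 TPM in survivors (-1.40 ± 0.15, adjusted p = 9.43e-05), without overlap. Among 14 NOTCH genes 4 were higher and 2 lower (3 and 5), and the repressor HEY2 ran at 3.96 to 7.93 TPM in gel and 1.16 to 2.08 TPM in survivors (1.49 ± 0.15, adjusted p = 7.04e-05) while HES4 ran at 27.7 to 44.8 TPM in gel and 60.1 to 76.9 TPM in survivors (-0.99 ± 0.12, adjusted p = 0.000193). In the IGF axis 4 were higher and 5 lower of 15 (1 and 5), and IRS2, the adaptor of insulin receptors, ran at 11.8 to 14.4 TPM in gel and 28.9 to 33.97 TPM in survivors (-1.21 ± 0.08, adjusted p = 7.54e-06). NF-kB targets and chemokines gave 3 higher and 6 lower of 20 (3 and 11). Of the 20, 13 were called lower on Day3 than on Day1, beside 256 of all 15167 genes. IL6 ran at 1.16 to 6.97 TPM in gel and 9.64 to 11.4 TPM in survivors (-1.39 ± 0.17, adjusted p = 0.000238) and LIF, a cytokine of the same family, at 11.1 to 21.9 TPM in gel and 26.2 to 34.7 TPM in survivors (-1.0 ± 0.11, adjusted p = 0.000117), while NFKBIA, the inhibitor of NF-kB, was higher in gel at 242.8 to 434.7 TPM in gel and 175.1 to 220.5 TPM in survivors (0.69 ± 0.09, adjusted p = 0.000278). CD44, the hyaluronan receptor, measured 35.01 and 23.1 TPM (Day1), 10.2 and 10.1 (Day3), 26.7 and 41.3 (Extracted) and 84.96 and 73.4 (Treated) (-1.53 ± 0.15, adjusted p = 7.29e-05), and 1 of its Day1 libraries reached the Extracted range.

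**Figure D5:**
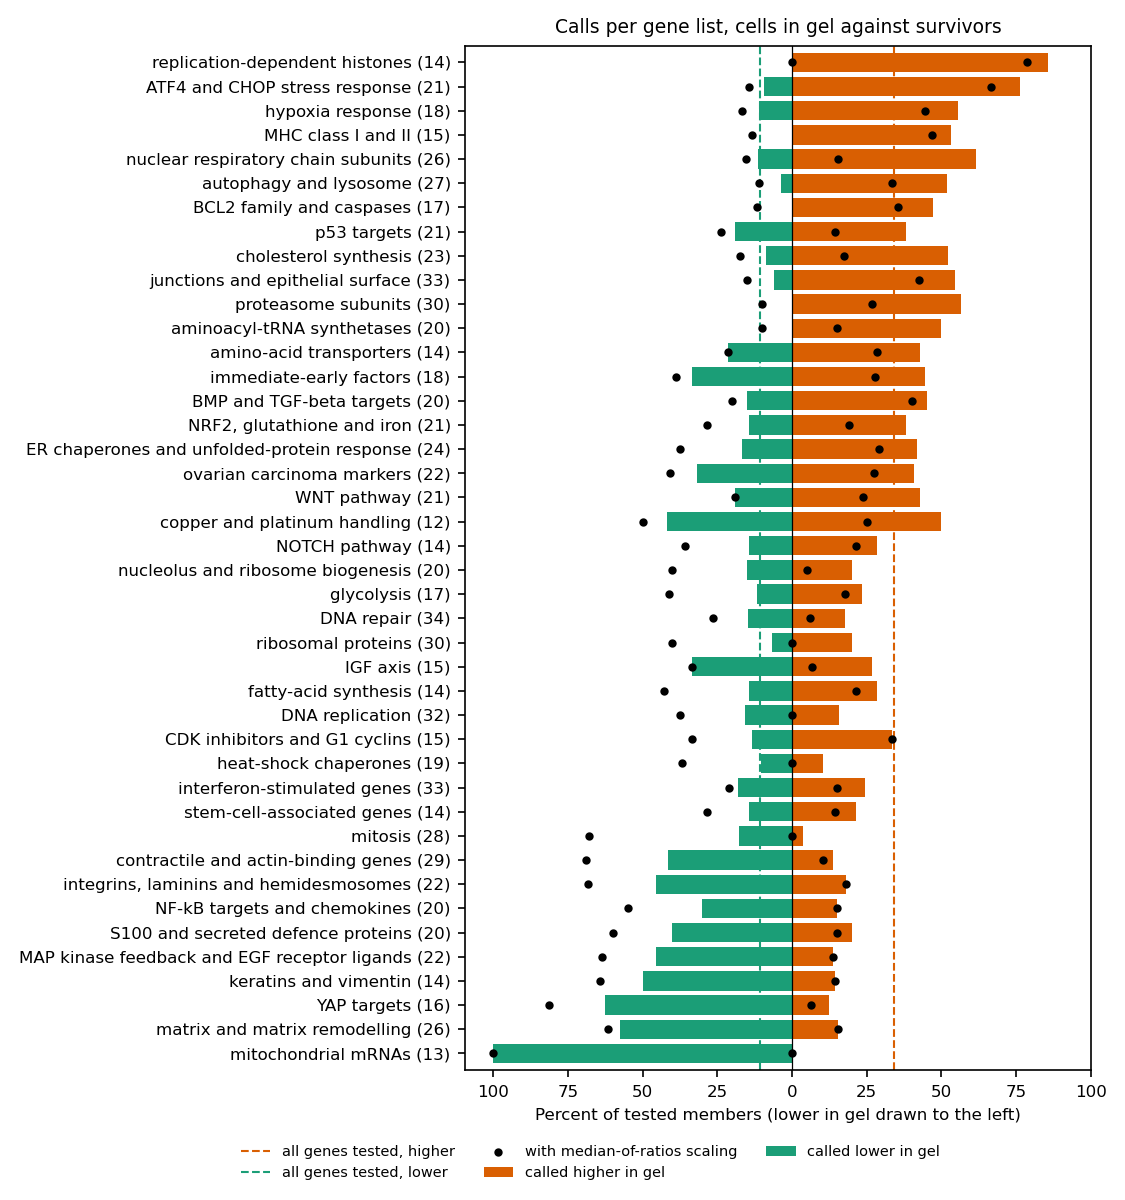
Percent of tested members (number in brackets) called higher in gel, drawn to the right, or lower, drawn to the left, for each gene list, with the same percent under median-of-ratios scaling as points and the values for all genes tested, 34.0% and 10.8%, as dashed lines. Histones and the ATF4 and CHOP genes reach farthest to the right under both scalings, and the mitochondrial mRNAs and YAP targets farthest to the left.

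The Control level, taken without rescaling, placed each change on one side or the other. Among the 235 genes at least 2-fold higher in gel, the Control mean lay between the arms and nearer the gel for 113 (48.1%), and between them and nearer the survivors for 85 (36.2%). It lay beyond the gel for 22 (9.36%) and beyond the survivors for 15 (6.38%). Among the 288 genes at least 2-fold lower in gel, it was nearer the survivors for 115 (39.9%), nearer the gel for 91 (31.6%), beyond the survivors for 64 (22.2%) and beyond the gel for 18 (6.25%). Genes with a difference of any size had Control beyond one of the arms more often, with 27.5% beyond the survivors and 22.3% beyond the gel among those higher in gel. WNT11, LAMA3 and EGR1 were thus nearer the gel level in Control cells, and IGFBP5, NEAT1 and CDKN1A nearer the survivor level.

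Fewer genes were called between the groups of an arm, where 2 libraries faced 2 instead of 4 facing 4. Day3 against Day1, which also tests whether the difference from survivors depends on the time in gel, called 356 genes (2.35%), and 37 of the 235 and 34 of the 288 genes with a 2-fold change were among them. Treated against Extracted, which also tests whether the difference depends on the kind of survivor, called 1836 genes (12.1%), and 58 of the 235 and 64 of the 288 were among them. These counts moved with single libraries: they ranged from 12 without Day3 replicate 1 to 837 without Day1 replicate 2 for the first, and from 166 without Extracted replicate 2 to 3143 without Treated replicate 1 for the second.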

How the data were processed

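RNA from 10 cultures of OVCAR-3 cells was sequenced, in 5 groups of 2 libraries taken from the labels. The deposited table holds TPM per gene and library, which the authors made with Trimmomatic, STAR and Cufflinks on GRCh38, per the submitters' processing notes. Versions, annotation release, strand setting and library selection were not given in the sources used here. Each library's TPM summed to 999986 to 999995, so depth cannot be read from them, and a larger share for one gene class lowers the rest. Of 58313 entries, 91 repeated the Ensembl identifier of another entry and were added to it, leaving 58222 genes, of which GENCODE release 29 held 57959 (99.55%) for biotypes and positions.

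The fit took the 15167 genes that reached 1 TPM in 2 or more libraries. It used limma 3.58.1 (R 4.3.3) on the log2(TPM + 1) scale, a mean-variance trend and 1 coefficient per group over all 10 libraries. Differences on that scale understate the fold change of low genes. With 2 cultures per group, p values set a difference against the spread between these cultures. That spread leaves out differences between the groups of an arm. On simulated data in which 200 of 15167 genes were changed, the comparison of gel with survivors recovered 95.5% of 2-fold and 64% of 1.5-fold changes, with 6 and 2 unchanged genes called. Changed genes were drawn from those with a mean above that of 5 TPM on the log2(TPM + 1) scale. Shifts were added on this scale, with no difference between the groups of an arm. Recovery in lower genes, or with as many genes changed as were called, was not simulated. Shares of TPM were compared by exact permutation over 4 and 4 libraries, and sums over gene lists are given as ranges with no test.

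Members, gene lists and alternatives were chosen with earlier results of these data known. The text names the 12 largest rises and falls among called genes with at least 5 TPM in the higher arm, non-overlapping arms and no clone-like or small-RNA name, up to 3 called members per list and direction, and a few genes fixed by name. CHAC1, ASNS, ANKRD1, ATOX1, CCS and COMMD1, given for their promoters, and the cell markers PTPRC, CD3D, FCGR3A and KRT8 lie outside this rule and were chosen after their values were seen. A few of the genes it selects are not reported here. Promoters came from a RefSeq table (GRCh38.p14). Alternatives were a pseudocount of 0.1, other filters, 3 rescalings, other sample sets, a 2-fold minimum, a replicate block and each library left out. Tables and plots were made in Python 3.11.15 with pandas 2.3.3, NumPy 2.4.6, SciPy 1.17.1 and Matplotlib 3.10.9.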

Additional observations from a re-analysis of the deposited data

Results flagged for a closer look

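Among the 24 genes with the largest rises and falls, several differed between the 2 groups of an arm, by limma with adjustment over all genes. On Day3 against Day1, the log2 difference was -1.59 for ATF3 (adjusted p = 0.00740), 0.70 for IGFBP5 (adjusted p = 0.0305), 0.86 for PABPC1L (adjusted p = 0.0233), 1.53 for MT-ND6 (adjusted p = 0.00617) and -0.62 for FGFBP1 (adjusted p = 0.0393). ATF3 was therefore farther from the survivors at 24 hours, IGFBP5 and FGFBP1 were farther from them at 3 days, and PABPC1L and MT-ND6 moved toward them by 3 days.

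Treated against Extracted, the log2 difference was -2.0 for NPAS3 (adjusted p = 7.31e-05), -1.30 for PPP1R1A (adjusted p = 0.00242), -0.77 for BBOX1 (adjusted p = 0.0264), 1.34 for ITGB2 (adjusted p = 0.00248), 0.80 for FGFBP1 (adjusted p = 0.00681), 0.72 for CPA4 (adjusted p = 0.0346) and 0.66 for NEAT1 (adjusted p = 0.0302). In these 7 genes the cisplatin survivors lay farther from the cells in gel than the gel survivors did.

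In 2 genes 1 gel library lay far from the other 3, with a gap to its nearest neighbour of 0.923 of the arm's range for TSPAN7 in Day1 replicate 1 (4.43 TPM) and 0.835 for ITGB2 in Day3 replicate 1 (0.494 TPM), above the critical value of 0.829 for 4 samples. Chance alone flags about 1 in 20 such arms, and each gel arm joins 2 conditions.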

How the results depend on the processing

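Called genes between gel and survivors (6790) stayed within 1.5 times that count with a pseudocount of 0.1, no filter, a 5 TPM filter, all 3 rescalings, the 8 compared libraries alone, the replicate block (6861) and each library left out (5191 to 7444), and fell to 4211 with pooled arms and 523 with a 2-fold minimum. Calls higher in gel (5151) fell to 2870 with median-of-ratios scaling, 3170 with nuclear protein-coding genes rescaled, 3146 with pooled arms, 3269 without Treated replicate 2 and Extracted replicate 1, and 235 with a 2-fold minimum. Calls lower in gel (1639) were 3218, 2583 and 1065 under the first 3 of these and 288 under the last. Each of the 8 fits without 1 compared library kept 4590 calls. Day3 against Day1 (356) gave 89 with no filter, 545, 574 and 572 with median-of-ratios, protein-coding and small-RNA rescaling, 167 with 8 libraries, 192 without the 2 libraries above, 114 at 2-fold and 12 to 837 with 1 library left out. Treated against Extracted (1836) gave 1018, 1066 with 8 libraries, 100 without the 2 libraries, 212 at 2-fold and 166 to 3143. The cause of these shifts was not tested. Of 4957 values of named genes, 4719 kept direction and side of the threshold, 233 lost and 4 gained the call, and 1 reversed. This was COL1A1 (not called, -0.04), which lay between -0.21 and 0.13 with 1 library left out, the latter without Treated replicate 1. Same-numbered replicates did not deviate together (correlations -0.022 to 0.087), so the block is no pairing. Unknown depth and 2 cultures per group limit the precision of each value.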

Other observations

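Classes of transcript differed in their split of calls. Of 12957 protein-coding genes 37.6% were higher and 10.1% lower in gel, with a median log2 difference of 0.19. Of 514 lincRNAs 15.6% were higher and 16.1% lower, and of 638 antisense genes 11.9% and 13.5%, where reads of an antisense gene and its partner cannot be told apart without a known strand setting. Of 69 sense-intronic genes 3 were higher and 16 lower (23.2%), with a median of -0.22, and of 187 transcribed unprocessed pseudogenes 22 were higher and 40 lower. Of 347 processed pseudogenes, by contrast, 48 were higher and 15 lower, with a median of 0.18.

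Genes of protein synthesis, folding, DNA repair and drug efflux made up 5 further lists. Of 30 ribosomal protein genes 6 were higher and 2 lower in gel, with a median of 0.06, but 0 and 12 with median-of-ratios scaling. Of 19 heat-shock chaperones 2 were higher and 2 lower (0 and 7), of 24 ER chaperones and unfolded-protein response genes 10 and 4 (7 and 9), and of 34 DNA repair genes 6 and 5 (2 and 9). Of 7 drug efflux genes 2 were higher and 1 lower (1 and 4).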
